A study of Danio rerio with 12 samples.

Results

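Wild-type (WT) zebrafish embryos at 75% epiboly (75%E) were compared with WT embryos at 30% epiboly (30%E), and the change of every measured transcript between these stages is described here as the normal course of gastrulation. Epiboly is the spreading of the blastoderm over the yolk cell, and the percentage gives how far its margin has moved. The comparison rests on 4 of the 12 samples of the series, namely 2 samples of 75%E and 2 of 30%E, and it covers all 15502 probe sets of the Affymetrix Zebrafish Genome array that are not control probe sets. All of them came from whole, uninjected embryos of the TL strain raised in the same salt solution, each sample being RNA of 100 pooled embryos, with 4 µg of total RNA taken for the probe. The 2 samples of a stage were independent samples. The 2 WT samples at the tailbud stage (TB), of the same strain and number of embryos, entered the estimate of the spread and the choice of the probe set that stands for a gene, and are given as values for the course beyond 75%E. The other 6 samples, embryos in which the B1 sox genes were knocked down, were not used, except in 1 alternative fit.

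A zebrafish embryo begins with RNAs and proteins that the mother stored in the egg. The embryonic genome is switched on at the blastula stage, before 30%E, and the maternal RNAs are then cleared while zygotic transcription takes over. Between 30%E and 75%E the germ layers form: cells at the margin move inward to become mesoderm and endoderm, the embryonic shield (the fish organizer) patterns the dorsal side, the neural plate and the epidermis become distinct, and the tissues converge and extend along the body axis. The outermost sheet, the enveloping layer (EVL), and the yolk syncytial layer (YSL) at the surface of the yolk differentiate at the same time.

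The values are hybridization signals on a linear scale, and each difference given is the log2 signal at 75%E minus that at 30%E, with its standard error (SE) from a limma fit to the 6 WT samples (n = 2 per stage). The adjustment of p (Benjamini-Hochberg) runs over all 15502 probe sets, and a change is called at an adjusted p under 0.05. Numbers in parentheses after a gene symbol are log2 differences. RMA, the authors' program, sets the arrays to a common scale, so that a difference is relative to the rest of the embryo's RNA. The deposited values still differed a little between the stages in their distribution, with an upper quartile of 277 and 283 at 75%E, against 307 and 314 at 30%E. In a whole embryo fewer cells of a type and less RNA per cell cannot be told apart. Signals of different probe sets are not compared with each other, because they depend on the probes.

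The change was broad. Of the 15502 probe sets 8320 (53.7%) were called, 4299 (27.7%) higher and 4021 (25.9%) lower at 75%E. A change of at least 2-fold was called higher for 1710 (11%) and lower for 2111 (13.6%). Of the 8793 genes that the annotation names, each represented by its brightest probe set, 2472 (28.1%) were higher and 2749 (31.3%) lower, with a median log2 difference of 0.04. At least 2-fold changes were called higher for 1017 genes (11.6%) and lower for 1482 (16.9%). In 12130 probe sets (78.2%) both samples of one stage lay on one side of both samples of the other. These shares are the background against which the gene groups below are to be read, but they depended on signal. With the probe sets divided by mean signal into 5 equal classes, 9.32% of the dimmest class were called higher and 7.09% lower. In the brightest class the shares were 39.5% and 28%, and calls lower reached 38.8% in the class next to it. The lists were not matched for signal, and its part in their shares was not tested. A large called change nearly implies that the samples are separated by stage. Where this separation is given below, it is a description and adds nothing to the call. The correlation of the log2 signals over all probe sets was 0.9920 between the 2 samples of 75%E and 0.9956 between the 2 samples of 30%E, against 0.8880 to 0.9091 between samples of different stages.

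Genes known to mark the stages were looked at under the stage labels. The list was drawn up with earlier results of these data known, so that its counts are a description and no check of the labels. The shares over all genes were 28.1% higher and 31.3% lower. All 10 measured markers of mid gastrulation (*tbx6* (1.37), *msgn1* (5.63), *her1* (1.35), *six3b* (2.0), *otx2b* (4.84), *shha* (2.92), *rx3* (1.17), *myf5* (3.12), *foxi1* (2.13) and *dlx3b* (4.26)) were higher at 75%E, and all 5 markers of the onset of gastrulation (*gsc* (-0.96), *ndr1* (-2.4), *mixl1* (-3.29), *vox* (-0.72) and *vent* (-0.82)) were lower, the call of *vent* being lost without the first sample of 30%E or of 75%E (adjusted p = 0.0971 and 0.0501) and that of *rx3* without either 30%E sample (adjusted p = 0.0767 and 0.0591). Markers of late differentiated cells, such as hemoglobins, muscle myosins, lens crystallins and pancreatic enzymes, lay mostly under the array's median signal. This held for 37 of 40 in either sample of 75%E, against 38 and 37 of 40 in the samples of 30%E. Under the lower quartile lay 8 and 9 of 40 at 75%E, against 11 and 13 at 30%E, so that most were not among the dimmest probe sets. The summed signal of the 40 was 1788 and 1683 at 75%E, against 1466 and 1388 at 30%E. Called higher were 12 (30%), near the 28.1% over all genes, and none by 2-fold. None was called lower, against 31.3% over all genes. After a second quantile normalization 6 were called higher. With probe sets in the lower 40% of mean signal left out 5 were, out of fewer tested. Fewer than 12 were called also without the second 30%E or the first 75%E sample. The share of 30% thus depended on the processing and on single samples. In the same 5 classes of mean signal the median log2 difference was, from the dimmest class to the brightest, 0.09, 0.14, 0.03, -0.08 and 0.11. The RNAs added as hybridization controls (18 probe sets) were 1.38-fold brighter at 75%E on average, from 0.993-fold for cre to 1.61-fold for bioB. Those added before labeling (24 probe sets) were 1.06-fold brighter. Their part in small differences was not tested.

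**Figure D1:**
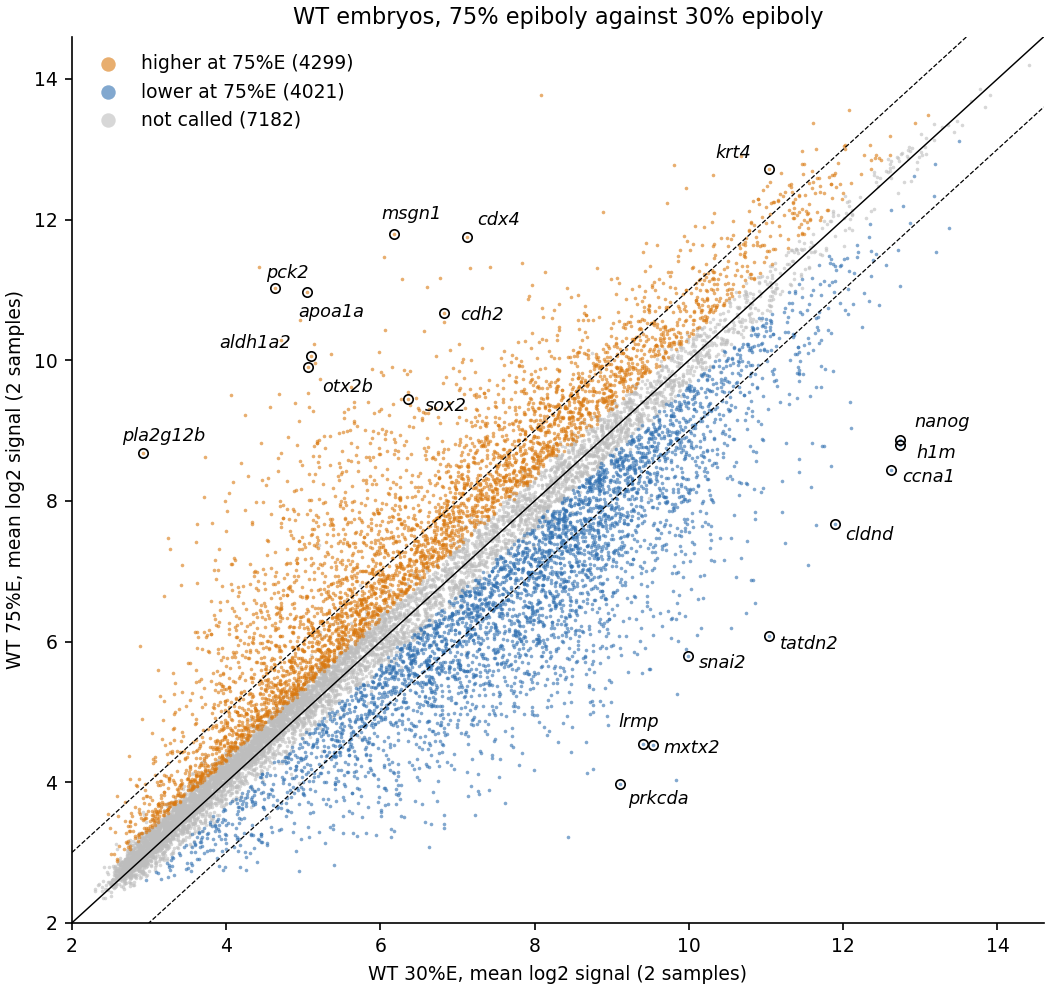
Mean log2 signal of each of the 15502 probe sets in WT embryos at 75%E (vertical axis, n = 2) against WT embryos at 30%E (horizontal axis, n = 2). Orange points are called higher at 75%E (4299), blue points called lower (4021) and grey points not called; the solid line is equality and the broken lines are 2-fold differences. The labelled genes lie far off the diagonal on both sides.

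The 12 largest increases are given first, from called genes whose samples do not overlap between the stages, so that the lack of overlap is part of how they were chosen. *pck2*, the mitochondrial phosphoenolpyruvate carboxykinase of gluconeogenesis, had signals of 1899.9 and 2282 in 75%E embryos, against 21.9 and 27.8 in 30%E embryos. *apoa1a*, the apolipoprotein of high-density lipoprotein, had 1797 and 2254 in 75%E embryos, against 34 and 32 in 30%E embryos. *pla2g12b*, a phospholipase-like secreted protein of lipoprotein assembly, had 401 and 416 in 75%E embryos, against 7.55 and 7.64 in 30%E embryos. In all of these the 75%E samples lay far above the 30%E samples, which were far under the median of their array, and the fitted differences were 6.4 ± 0.15, 5.93 ± 0.14 and 5.75 ± 0.12 (adjusted p = 8.84e-08, 7.47e-08 and 7.47e-08). *tfa* (transferrin, the iron carrier) had 1664 and 1387 in 75%E embryos, against 33.2 and 28.9 in 30%E embryos, and *bhmt* (betaine-homocysteine methyltransferase) had 2495 and 3194 in 75%E embryos, against 69.2 and 62.9 in 30%E embryos. *fetub* (fetuin B, a secreted protease inhibitor) had 2161 and 2429.6 in 75%E embryos, against 91.6 and 65.5 in 30%E embryos. *uox* (urate oxidase) had 721 and 741 in 75%E embryos, against 25.7 and 25.8 in 30%E embryos. These secreted or metabolic genes, best known from the liver, were thus high in both 75%E samples, at 5.62, 5.42, 4.89 and 4.83, and all 4 had higher signals again in both TB samples. At TB *apoa1a* had 3459 and 3512. *fabp1b.1*, a fatty acid-binding protein, had 504 and 703 in 75%E embryos, against 19.8 and 18.2 in 30%E embryos.

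The remaining large increases were of patterning genes and 1 annexin. *msgn1*, encoding Mesogenin, a bHLH factor of presomitic mesoderm, had 3476 and 3650.2 in 75%E embryos, against 78.1 and 66.6 in 30%E embryos, a difference of 5.63 ± 0.12 (SE), adjusted p = 7.47e-08. *aldh1a2*, which makes retinoic acid, had 1079 and 1057 in 75%E embryos, against 35.6 and 33 in 30%E embryos (4.96 ± 0.12). *otx2b*, a homeobox gene of the forebrain and midbrain, had 889 and 1029 in 75%E embryos, against 29.9 and 37.4 in 30%E embryos (4.84 ± 0.14). In all of these both 30%E samples were well under the 75%E samples. *anxa1c*, an annexin of the surface epithelium, had 1087 and 1333 in 75%E embryos, against 45.6 and 27.3 in 30%E embryos, and here the 2 samples of 30%E differed from each other by more than those of 75%E in proportion.

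The 12 largest decreases were chosen in the same way. *prkcda*, a protein kinase C, had signals of 14.8 and 16.8 in 75%E embryos, against 556 and 545 in 30%E embryos, a difference of -5.12 ± 0.12 (SE), adjusted p = 7.47e-08. *mxtx2*, a homeobox gene that acts in the forming YSL, had 21.7 and 24.5 in 75%E embryos, against 727 and 757 in 30%E embryos (-5.01 ± 0.14). *lrmp*, whose maternal product is needed for the union of the pronuclei in zebrafish, had 21 and 25.8 in 75%E embryos, against 664 and 696 in 30%E embryos (-4.87 ± 0.14). In each case both 75%E samples were near the lower quartile of their array, and the TB samples were low too (20 and 19.9 for *prkcda*, 20.2 and 25.1 for *mxtx2*). *tatdn2* (a TatD-type nuclease) had 58.9 and 77.4 in 75%E embryos, against 2046 and 2161 in 30%E embryos, and *cdc34a* (a ubiquitin-conjugating enzyme) had 88.3 and 98.2 in 75%E embryos, against 1795 and 1927 in 30%E embryos. *cldnd*, a claudin of tight junctions, had 154 and 272 in 75%E embryos, against 3392 and 4237 in 30%E embryos. The differences were -4.96, -4.32 and -4.21.

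For some of the largest decreases the 2 samples of 75%E stood apart from each other. *ccna1*, the embryonic A-type cyclin, had 209 and 582 in 75%E embryos, against 6150.3 and 6473 in 30%E embryos, so that the second 75%E sample lay well above the first while both were far under 30%E (-4.18 ± 0.38 (SE), adjusted p = 2.91e-05). *map1lc3c*, an LC3 protein of autophagosomes, had 147 and 278 in 75%E embryos, against 3020.2 and 3409 in 30%E embryos (-3.99 ± 0.25). The others were *snai2* (-4.19), a Snail-type repressor, *znf326* (-4.14), *bag4* (-4.07), a co-chaperone, and *ciarta* (-3.99), a circadian repressor. One gene with a clone name fell by more than any of these and is left unnamed. Of all genes, 26 lay under the lower quartile of both 30%E arrays and above the median of both 75%E arrays, among them *pla2g12b*, *fabp1b.1*, *apobb.1* (4.07), *evplb* (4.35), *hoxc8a* (4.08), *six7* (4.04), *fezf2* (3.05), *myf5*, *twist1a* (2.75), *frzb* (3.58) and *fzd2* (2.63). The reverse was the case for 28 genes, *prkcda* and *stra6* (-2.4) (the retinol-binding protein receptor) among them.

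**Figure D2:**
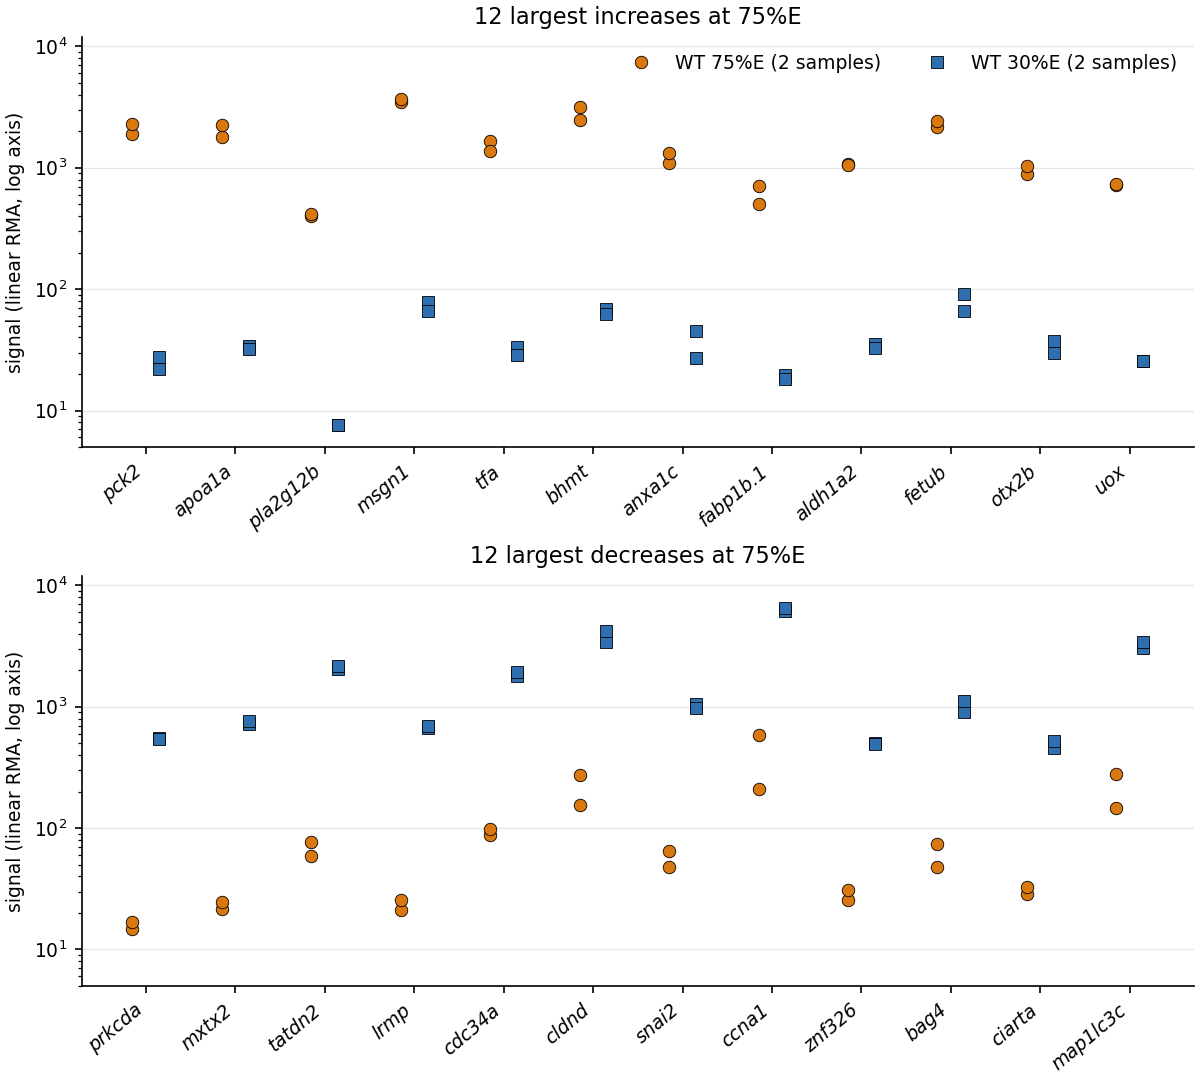
Signal of the 12 genes with the largest increase (upper panel) and the 12 with the largest decrease (lower panel), 1 point per sample on a log axis, with WT 75%E in orange circles and WT 30%E in blue squares. The genes were chosen among those whose stages do not overlap, and the 75%E samples of *ccna1* and *map1lc3c* are spread more widely than those of most others.

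Genes listed as stored products of oogenesis and of the germ plasm were mostly lower. The gene lists here and below were chosen with earlier results of these data known. Their counts therefore describe the listed members and are no test of the groups. The lists also share some members, such as *cldnd*, *mxtx2*, *otx2b* and *snai2*, so that their counts are not independent. Of 28 measured genes of the oocyte and egg, 21 (75%) were lower, 17 of them at least 2-fold, and 1 was higher. The median was -2.16, against 0.04 over all genes, 31.3% of which were lower. *h1m*, the maternal linker histone, had 435 and 451 in 75%E embryos, against 6557 and 7062 in 30%E embryos, a difference of -3.94 ± 0.11 (SE), adjusted p = 1.79e-07. *pabpn1l*, an embryonic poly(A)-binding protein, had 35.2 and 68 in 75%E embryos, against 786 and 651 in 30%E embryos. Both stages were fully separated, as they were for *patl2* (-3.82), an oocyte RNA-binding protein. Over all probe sets 78.2% were separated in this way. *cth1*, a maternal CCCH zinc-finger protein, had 127 and 224 in 75%E embryos, against 2293 and 2582 in 30%E embryos (-3.85 ± 0.23).

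Among the kinases and regulators of meiosis and of the egg, *wee2* (-2.88) (an oocyte kinase that holds back Cdk1, lower in all 5 of its probe sets), *mos* (-2.32) (the kinase of metaphase arrest), *cpeb1b* (-2.55) (cytoplasmic polyadenylation) and *btg4* (-2.78) (in mice an adaptor of the deadenylase in maternal mRNA decay) were lower. So were *zar1* (-1.29) and *zar1l* (-2.58), and the TGFβ ligands *bmp15* (-1.91) and *gdf3* (-2.8) (zebrafish Vg1, the maternal partner of Nodal). *gdf3* had 224 and 348 in 75%E embryos, against 1786 and 2138 in 30%E embryos. *sybu*, encoding Syntabulin, which carries the dorsal determinant from the vegetal pole, had 29.6 and 32.9 in 75%E embryos, against 199 and 272 in 30%E embryos. The egg coat genes *zp3b* (-0.32) and *zp2.6* (0.0) did not pass the test, *zp3b* doing so only without the first 75%E sample (adjusted p = 0.0223). *ybx1*, a maternal RNA-binding protein also made by the embryo, was the member called higher, at 0.67, and its other probe set was not called.

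Of 16 germ plasm and germ cell genes, 12 (75%) were lower, each by at least 2-fold, against 31.3% lower over all genes. None was higher (1 with all 12 arrays or after a second quantile normalization), and the median was -1.87. *buc*, encoding Bucky ball, the organizer of the Balbiani body of the oocyte, had 53 and 87.1 in 75%E embryos, against 541 and 626 in 30%E embryos (-3.1 ± 0.23). *tdrd7a*, a Tudor-domain protein of germ granules, had 134 and 158 in 75%E embryos, against 746 and 787 in 30%E embryos. The Piwi genes *piwil1* (-2.21) and *piwil2* (-1.75) and *dazl* (-1.71), an RNA-binding protein of germ cells, were lower as well. Some members kept more of their signal. *ddx4* (Vasa), whose RNA is protected in the primordial germ cells, had 802 and 602 at 75%E and 822 and 964 at 30%E and was not called (-0.36 ± 0.17 (SE), adjusted p = 0.114), unless the first 75%E sample was left out (adjusted p = 0.0268), but it stood at only 132 and 159.8 at TB. *nanos3*, a translational repressor kept in the same cells, fell by 1.05, the smallest change among the 12, a call lost without the second 30%E sample or the first 75%E sample (adjusted p = 0.124 and 0.121), while *dnd1* (-0.21) was not called by its brightest probe set and was lower by its other one.

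**Figure D3:**
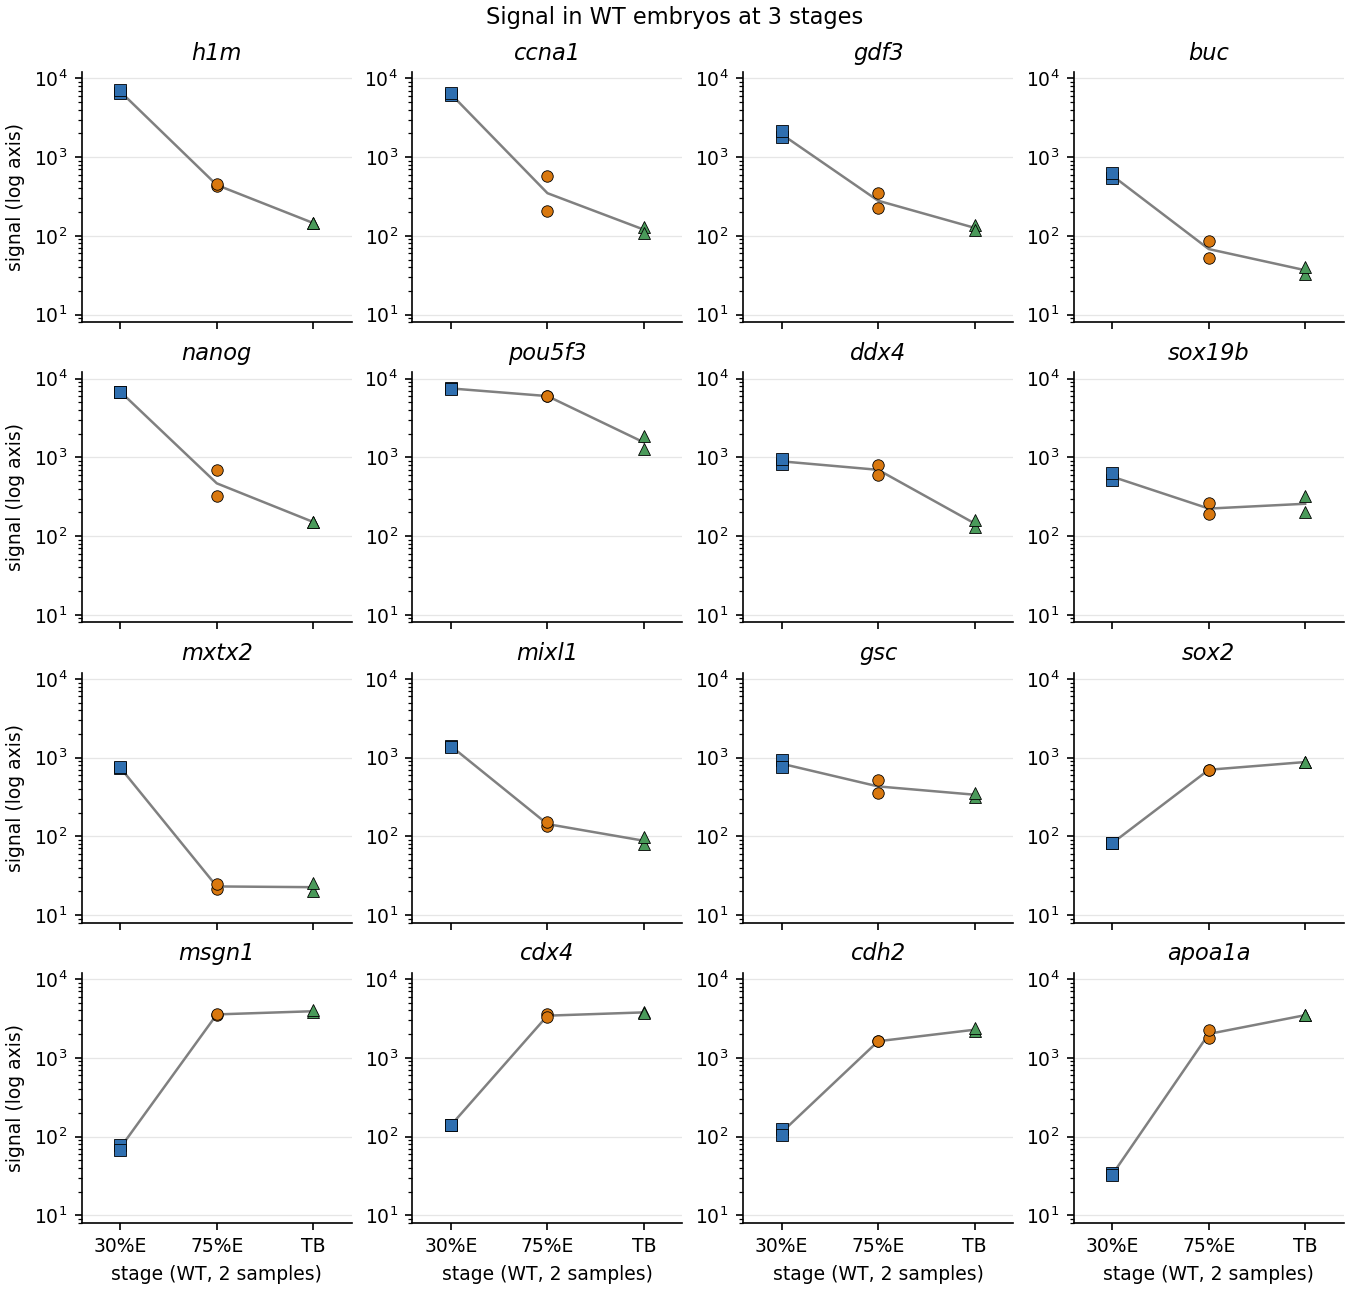
Signal in each WT sample at 30%E, 75%E and TB (2 points per stage, line through the geometric mean, log axis) for 16 genes, from maternal transcripts through genes of the late blastula to genes of the gastrula. *h1m*, *ccna1*, *nanog*, *gdf3* and *buc* are lower at 75%E and lower again at TB, *ddx4* and *pou5f3* are low at TB only, and *msgn1*, *cdx4*, *apoa1a* and *cdh2* are high at both later stages.

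The factors that activate the zygotic genome differed in their course. Of 24 genes of pluripotency and early activation 7 were higher and 8 lower, shares close to the background, and the median of -0.09 turned to 0.02 after a second quantile normalization. *nanog*, the homeobox factor that with Pou5f3 and SoxB1 proteins opens the first zygotic genes, had 321 and 682 in 75%E embryos, against 6808 and 6856 in 30%E embryos (-3.87 ± 0.29 (SE), adjusted p = 8.67e-06). *pou5f3*, the zebrafish Oct4 relative, had 6019 and 6008 in 75%E embryos, against 7696 and 7347 in 30%E embryos and was not called (-0.32 ± 0.18 (SE), adjusted p = 0.162). Thus *nanog* had dropped in both 75%E samples, while the samples for *pou5f3* remained near the 30%E level, and by TB *pou5f3* had 1271 and 1894. *eomesa*, a T-box factor supplied by the mother, had 82.6 and 99.6 in 75%E embryos, against 660.3 and 746 in 30%E embryos (-2.95 ± 0.13).

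The 4 B1 sox genes targeted by the knockdown in the series, which are not all of the B1 sox genes of zebrafish, encode HMG-box factors of the early embryo and the neural ectoderm. *sox2* had 705 and 697 in 75%E embryos, against 82.2 and 82 in 30%E embryos, a difference of 3.09 ± 0.11 (SE), adjusted p = 3.41e-07, and it was higher in 2 of its 3 probe sets. *sox3* had 2249.5 and 2735 in 75%E embryos, against 4041 and 3622 in 30%E embryos (-0.63 ± 0.13 (SE), adjusted p = 0.00394), a difference not called in its other 2 probe sets. *sox19a* had 2058 and 2340.2 in 75%E embryos, against 1939 and 1892 in 30%E embryos and was not called (0.2 ± 0.12 (SE), adjusted p = 0.216). *sox19b*, the member with a maternal supply, had 259.7 and 192 in 75%E embryos, against 516 and 625 in 30%E embryos (-1.35 ± 0.24 (SE), adjusted p = 0.00127). At 75%E, then, *sox2* stood well above and *sox19b* well below its 30%E level, with no overlap of the samples, as in 78.2% of all probe sets.

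The YSL and lipid list was mostly higher, apart from its early regulator *mxtx2*. Of 38 genes 24 (63.2%) were higher, 18 at least 2-fold, and 4 lower (median 0.96), against 28.1% and 31.3% over all genes. The apolipoproteins *apobb.1* (4.07), *apoa2* (3.08), *apoc2* (2.96), *apoc1* (2.48), *apoba* (1.4), *apoa4b.1* (0.75) and *apoeb* (0.72) were called higher, as was *mttp* (1.9), the microsomal transfer protein that loads them with lipid. *apobb.1* had 362 and 293 in 75%E embryos, against 20.6 and 18.4 in 30%E embryos. *fabp2*, an intestinal-type fatty acid-binding protein, had 398 and 421 in 75%E embryos, against 26.4 and 26.2 in 30%E embryos, and *serpina1l* (an antitrypsin) had 241 and 373 in 75%E embryos, against 20.4 and 25.7 in 30%E embryos. For these the 30%E samples were dim and both 75%E samples bright. *slc3a2a*, an amino acid transporter subunit, had 526 and 601 in 75%E embryos, against 21.1 and 44.6 in 30%E embryos (4.2 ± 0.29). The transcription factors *cebpa* (2.19), *gata6* (2.0), *hnf4a* (1.01) and *creb3l3a* (0.92) were higher too, the *hnf4a* call not being made by its other probe set. Besides *mxtx2*, *lamp2* (-1.69) and *fabp3* (-0.97) were lower by about 2-fold or more.

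Endoderm and mesendoderm genes split in both directions, with 12 of 32 (37.5%) higher and 13 (40.6%) lower, against 28.1% and 31.3% over all genes. The median of 0.03 turned negative (-0.07) after a second quantile normalization. *mixl1*, a homeobox target of Nodal, had 135 and 152 in 75%E embryos, against 1421 and 1375 in 30%E embryos (-3.29 ± 0.14 (SE), adjusted p = 6.38e-07). *ndr1* (Squint) and *ndr2* (Cyclops), the Nodal ligands, moved apart: *ndr1* had 26.6 and 32.1 in 75%E embryos, against 152 and 157 in 30%E embryos, whereas *ndr2* had 134 and 165 in 75%E embryos, against 103 and 99.8 in 30%E embryos. Their differences were -2.4 ± 0.17 and 0.55 ± 0.15. *sox17*, a gene of committed endoderm, had 134 and 115 in 75%E embryos, against 23.8 and 21.8 in 30%E embryos (2.45 ± 0.13), and its activator *sox32* had 1424 and 1518 in 75%E embryos, against 670.5 and 505 in 30%E embryos (1.34 ± 0.20). *foxa2*, a forkhead factor of endoderm, notochord and floor plate, had 805 and 825 in 75%E embryos, against 122 and 103 in 30%E embryos (2.86 ± 0.14), while its relative *foxa* had 235 and 216 in 75%E embryos, against 469 and 483 in 30%E embryos (-1.08 ± 0.11). The GATA factors *gata6* (2.0) and *gata5* (1.18) were higher too.

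In the Nodal pathway as a whole 10 of 18 genes (55.6%) were lower and 4 higher (median -0.40), against 31.3% and 28.1% over all genes. The lower ones included the ligands *ndr1* and *gdf3*, the co-receptor *tdgf1* (-1.02) (One-eyed pinhead), the receptor *acvr1ba* (-1.05) and the transducer *smad2* (-0.97). The antagonists *lft1* (-0.33) and *lft2* (0.19) were not called, *lft1* being called lower only without the second 75%E sample (adjusted p = 0.0219). The repressors *skib* (1.75), *skia* (0.68) and *tgif1* (0.74) were the other higher members beside *ndr2*. The calls of *ndr2* and *skia* were lost without the second 30%E sample (adjusted p = 0.0709 and 0.0748), that of *ndr2* also without the second 75%E sample (0.0624) and that of *skia* without the first (0.0531).

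Dorsal genes were mostly higher. Of 35 genes of the organizer, prechordal plate and notochord 21 (60%) were higher, 14 at least 2-fold, and 5 were lower. The median was 0.47, and over all genes 28.1% were higher and 31.3% lower. *frzb*, a secreted Wnt inhibitor, had 192 and 189 in 75%E embryos, against 16.6 and 15.3 in 30%E embryos (3.58 ± 0.12). *shha*, the Hedgehog ligand of the axial midline, had 184 and 211 in 75%E embryos, against 26.9 and 25.3 in 30%E embryos (2.92 ± 0.16), and its paralogue *shhb* had 103 and 116 in 75%E embryos, against 32.9 and 30.1 in 30%E embryos. *chrd* (Chordin, the Bmp antagonist) had 1023 and 1207 in 75%E embryos, against 395 and 363 in 30%E embryos (1.55 ± 0.13). The 75%E samples lay above both 30%E samples in all 4, where 78.2% of all probe sets were separated by stage. Several homeobox genes of the early shield went the other way: *gsc* had 359.8 and 515 in 75%E embryos, against 922 and 758 in 30%E embryos (-0.96 ± 0.18 (SE), adjusted p = 0.00219), *noto* (Floating head) had 732 and 831 in 75%E embryos, against 1309.7 and 1323 in 30%E embryos, and *lhx1a* had 87 and 77.6 in 75%E embryos, against 149.5 and 135 in 30%E embryos. *tbxta* (Brachyury, No tail) was only slightly higher, with 1250.5 and 1404 at 75%E and 1029.8 and 1095 at 30%E (0.32 ± 0.12 (SE), adjusted p = 0.0497), a call lost without any 1 sample other than the first of 75%E (adjusted p = 0.0733 to 0.202).

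Genes of trunk and tail mesoderm were mostly higher. In the paraxial and segmentation list 24 of 34 genes (70.6%) were higher, 17 at least 2-fold, and 3 lower (median 1.13). The shares over all genes were 28.1% higher and 31.3% lower. After *msgn1* and *aldh1a2*, the largest increases were *cdx4*, a Caudal-type factor of the posterior body, with 3574 and 3301 in 75%E embryos, against 141 and 138 in 30%E embryos (4.62 ± 0.11), and *foxc1a*, needed for somite formation, with 705 and 777 in 75%E embryos, against 35 and 31.9 in 30%E embryos (4.47 ± 0.12). *mespaa*, a bHLH factor of the somite border, had 226 and 191 in 75%E embryos, against 18.8 and 21.8 in 30%E embryos, and *myf5*, a myogenic factor, had 116 and 145 in 75%E embryos, against 14.2 and 15.6 in 30%E embryos. No sample of 30%E reached a 75%E sample in these, and 78.2% of all probe sets were likewise separated by stage. The oscillating Hairy genes *her1* (1.35) and *her7* (0.92), the Notch ligand *dlc* (1.5) and the protocadherin *pcdh8* (1.56) were higher, as was *tbx6* (1.37). The myogenic factors *myod1* (0.26) and *myog* (0.06) were not called. *tbx16* (Spadetail) was lower at -0.8, a call its other probe set did not give, and *snai2* was lower in all 3 of its probe sets, with 47.5 and 65.2 in 75%E embryos, against 1059 and 973 in 30%E embryos for the brightest. In the ventrolateral, blood and heart list 8 of 26 (30.8%) were higher, near the 28.1% over all genes. In it 4 (15.4%) were lower and 14 not called, with a median of 0.12. The increases there were *cxcl12b* (3.47), the GATA factors and *nkx2.7* (1.22), and *tal1* (0.05) and *nkx2.5* (0.12) were not called.

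The neural plate lists were next. Of 37 forebrain and eye field genes 25 (67.6%) were higher, 20 at least 2-fold, and 2 were lower (median 1.33). The shares over all genes were 28.1% higher and 31.3% lower. *six7*, a Six-type homeobox gene, had 145 and 175 in 75%E embryos, against 9.47 and 9.9 in 30%E embryos (4.04 ± 0.13), and *hesx1*, a repressor of the anterior neural plate, had 398 and 319 in 75%E embryos, against 34 and 40 in 30%E embryos (3.27 ± 0.15). *fezf2*, a zinc-finger gene of the forebrain, had 125 and 152 in 75%E embryos, against 16.4 and 17 in 30%E embryos (3.05 ± 0.13). *rx3*, which specifies the eye field, had 98.3 and 237 in 75%E embryos, against 65.1 and 70.4 in 30%E embryos (1.17 ± 0.33), the call lost without either 30%E sample. Both samples of 75%E were above both of 30%E for each of them, where 78.2% of all probe sets were separated by stage. *zic1*, *meis3* (3.87), *irx1b* (3.65), *otx2a* (3.01), *six3a* (2.15) and *zic2a* (2.02) were higher as well, *zic1* at 3.03. The forebrain genes *vax1* (0.09), *nkx2.1* (0.04), *barhl2* (0.05) and *pax6a* (0.06) were not called, and *emx3* (-0.49) was lower, a call lost without the second 30%E sample (adjusted p = 0.06).

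In the midbrain, hindbrain and posterior list 26 of 54 (48.1%) were higher and 6 lower (median 0.38), against 28.1% and 31.3% over all genes. Among the Hox genes, *hoxc8a* had 299 and 257 in 75%E embryos, against 15.7 and 17.2 in 30%E embryos (4.08 ± 0.13), called in 1 of its other 2 probe sets, and *hoxb3a* had 105 and 97.5 in 75%E embryos, against 30.1 and 25.3 in 30%E embryos (1.88 ± 0.13). *hoxb9a* (1.73), *hoxb8a* (1.45) and *hoxb1a* (1.17) were also over 2-fold higher. *her9*, a Hairy repressor, had 497 and 573 in 75%E embryos, against 57.5 and 46.6 in 30%E embryos, and *gbx1*, which acts at the midbrain-hindbrain boundary, had 496 and 639.6 in 75%E embryos, against 144 and 178 in 30%E embryos. *znf703*, a repressor of the hindbrain, had 1116 and 1300.3 in 75%E embryos, against 154 and 110.0 in 30%E embryos. None of these overlapped between stages, a separation that 78.2% of all probe sets had. The boundary and rhombomere genes *egr2b* (-0.03), *en2a* (0.28), *wnt1* (0.14) and *pax2a* (0.23) were not called. *her5*, a Hairy gene of endoderm and midbrain, was lower at -1.28.

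Of 44 proneural and neuronal genes 18 (40.9%) were higher, 9 at least 2-fold, and 4 lower (median 0.31). The shares over all genes were 28.1% higher and 31.3% lower. *mdkb*, the growth factor Midkine b, had 796 and 977 in 75%E embryos, against 67 and 63.9 in 30%E embryos (3.75 ± 0.13). *dla*, the Notch ligand of early neurons, had 267 and 314 in 75%E embryos, against 40.5 and 42.9 in 30%E embryos (2.8 ± 0.13), and *neurog1*, the proneural bHLH factor, had 62.7 and 60.2 in 75%E embryos, against 26.6 and 27.9 in 30%E embryos (1.17 ± 0.12). The samples were separated by stage in these 3 genes, as they were in 78.2% of all probe sets. Of the genes of differentiated neurons, *elavl4* (0.24), *neurod1* (0.06) and *neurod4* (0.2) were not called.

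**Figure D4:**
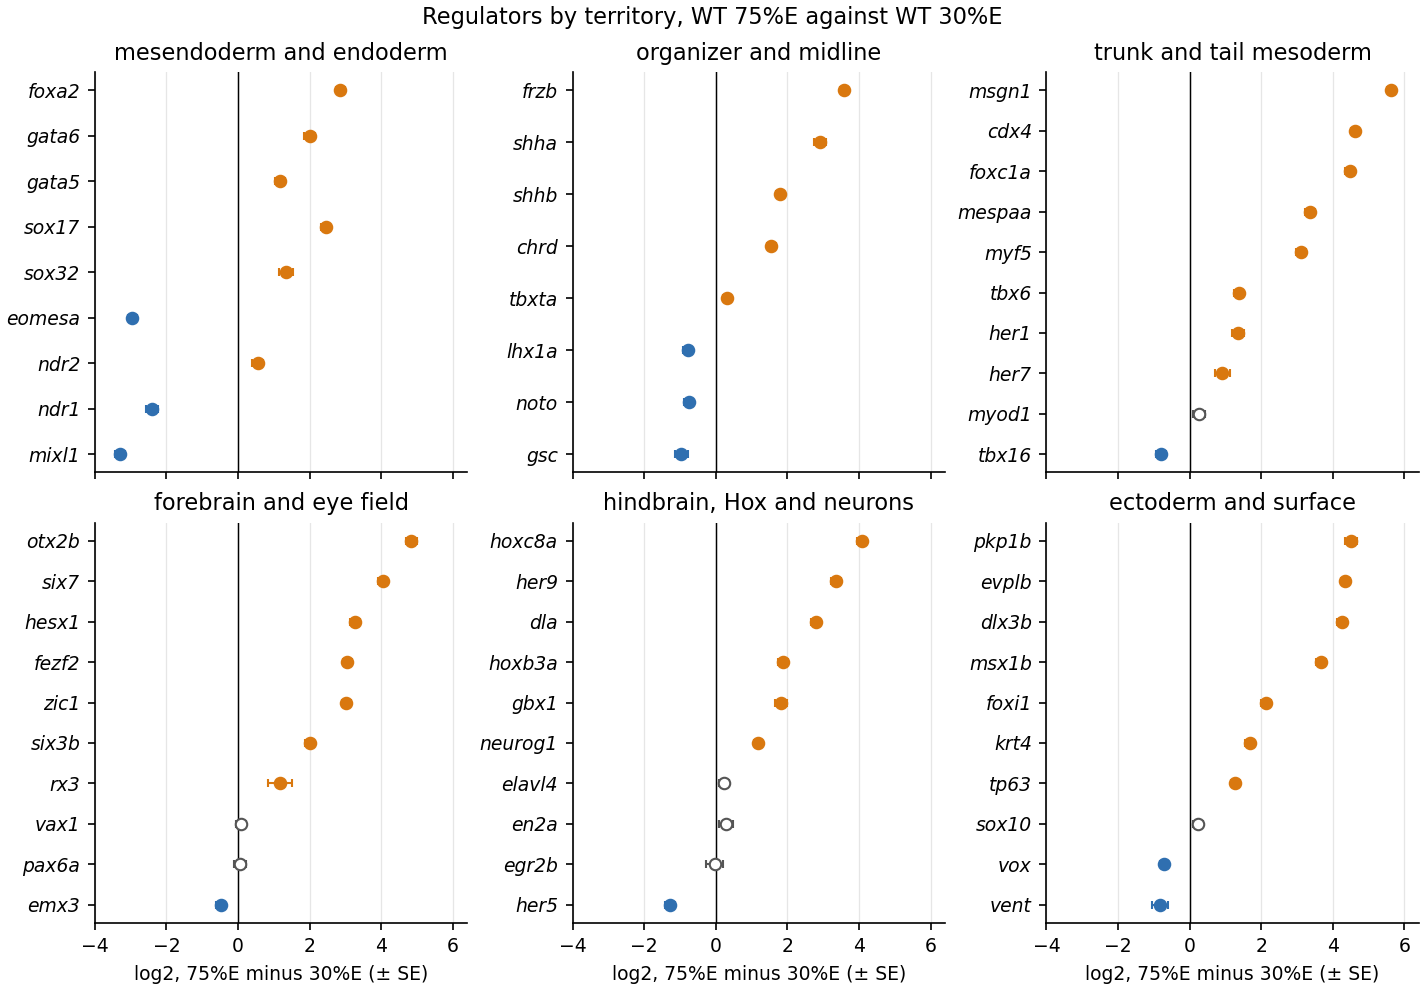
Log2 difference (WT 75%E minus WT 30%E) with its standard error for named regulators, grouped by where they act; filled points are called and open points not called. Early shield and mesendoderm genes (*gsc*, *noto*, *mixl1*, *ndr1*) lie below 0, and most genes of trunk mesoderm, forebrain and plate border lie above 1.

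On the non-neural side 24 of 38 genes (63.2%) of the ectoderm and plate border were higher, 17 at least 2-fold, and 5 lower. The median was 0.69, and over all genes 28.1% were higher and 31.3% lower. *dlx3b*, a homeobox gene of the preplacodal region, had 648 and 645 in 75%E embryos, against 37.4 and 30.4 in 30%E embryos (4.26 ± 0.13). *msx1b*, a Bmp-responsive gene of the plate border, had 610.4 and 683 in 75%E embryos, against 53.6 and 47.6 in 30%E embryos (3.68 ± 0.15). *foxi1*, a forkhead gene of otic and epidermal precursors, had 674 and 761 in 75%E embryos, against 182 and 147 in 30%E embryos, and *tp63*, which encodes the basal keratinocyte factor p63, had 127 and 112 in 75%E embryos, against 50.2 and 48.6 in 30%E embryos. Here too the stages did not overlap, as in 78.2% of all probe sets. The AP-2 genes *tfap2a* (1.58) and *tfap2c* (1.61) and the GATA gene *gata2a* (1.88) were higher, and the neural crest genes *sox10* (0.24) and *pax3a* (0.14) were not called, whereas the Snail-type gene *snai2* (-4.19) had the largest decrease of the list. The ventral repressors *vox* and *vent*, already high at 30%E, were lower (2737 and 2924 at 75%E and 4837 and 4466 at 30%E for *vox*), while the third member of that cluster, *ved* (1.46), was higher.

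Structural genes of the surface epithelium were mostly higher. In the epidermis and EVL list 29 of 47 (61.7%) were higher, 20 at least 2-fold, and 7 lower (median 0.75). The shares over all genes were 28.1% higher and 31.3% lower. The desmosomal and cornified envelope genes *pkp1b* (plakophilin), *evplb* (envoplakin), *ppl* (2.43) (periplakin) and *pkp3a* (2.83) were among the largest. *pkp1b* had 619 and 733 in 75%E embryos, against 35 and 25 in 30%E embryos (4.51 ± 0.17), and *evplb* had 378 and 369 in 75%E embryos, against 16.8 and 19.9 in 30%E embryos (4.35 ± 0.13). Keratins followed: *krt17* had 1846 and 2871 in 75%E embryos, against 133 and 89.8 in 30%E embryos (4.4 ± 0.25), *krt5* had 4856 and 4785 in 75%E embryos, against 1014 and 693 in 30%E embryos (2.52 ± 0.18) and *krt4*, an EVL keratin, had 6469 and 7048 in 75%E embryos, against 2308 and 1928 in 30%E embryos (1.68 ± 0.13). Each 75%E sample exceeded both 30%E samples, where 78.2% of all probe sets were separated by stage. *krt18b* (0.13) and *cldni* (0.26) were not called. The decreases included *ahnak* (-3.09), *cldn7b* (-1.68), *st14a* (-1.65), *tjp3* (-1.01), *epcam* (-0.8) and *cdh1* (-0.7), of which *epcam* was not called by another probe set.

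The secreted signals and their inhibitors were compared next. In the Bmp list 22 of 38 genes (57.9%) were higher, 14 at least 2-fold, and 6 lower (median 0.65). The shares over all genes were 28.1% higher and 31.3% lower. Of the ligands, *bmp4* had 202 and 259 in 75%E embryos, against 107 and 91.3 in 30%E embryos (1.21 ± 0.15 (SE), adjusted p = 1.67e-04), whereas *bmp2b* had 943 and 996 in 75%E embryos, against 883 and 792 in 30%E embryos and *bmp7a* had 337 and 327 in 75%E embryos, against 419 and 367 in 30%E embryos, which were not called (0.21 and -0.24). Among the extracellular modulators *chrd*, *nog1* (1.57), *fsta* (2.14), *szl* (1.48) (Sizzled), *bmper* (2.3) and *admp* (0.98) were higher. So were the intracellular inhibitors *smad6a* (2.22) and *smad7* (0.59). Of the transducers *smad1* (1.06) was higher and *smad5* (-0.82), which has a maternal supply, lower, a call that the other probe set of *smad5* did not give. The target *id3* had 905 and 808 in 75%E embryos, against 264 and 235 in 30%E embryos (1.78 ± 0.13).

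Of 52 Wnt components 30 (57.7%) were higher, 20 at least 2-fold, and 4 lower (median 0.48), against 28.1% and 31.3% over all genes. Of the receptors, *fzd10* had 352 and 366 in 75%E embryos, against 43.7 and 45.7 in 30%E embryos (3.01 ± 0.11), and *fzd8b* (2.72), *fzd2* (2.63), *fzd7a* (2.22), *fzd9b* (1.67) and *fzd8a* (1.44) were higher. The target genes *sp5l* (2550.0 and 2769.9 in 75%E embryos, against 254 and 206 in 30%E embryos) and *axin2* (840.2 and 849.5 in 75%E embryos, against 336 and 289 in 30%E embryos) were higher in both samples. The ligand *wnt5b* had 287 and 248 in 75%E embryos, against 73 and 72.5 in 30%E embryos (1.88 ± 0.15). Another ligand, *wnt11*, was dim at both stages, with 13 and 14.2 at 75%E and 14 and 12.7 at 30%E. These signals lay under the lower quartile of their arrays, so that they cannot show whether *wnt11* changed. The paper reports from RT-PCR that the gene it names *wnt11* normally goes up in early gastrulation. It treats *wnt11r* as a separate gene, and which of them this probe set measures was not checked. The member with the largest decrease was *ndrg1a* (-2.24).

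In the Fgf list 15 of 33 (45.5%) were higher and 8 (24.2%) lower (median 0.25), against 28.1% and 31.3% over all genes. *fgf8a* was level, with 319 and 296 at 75%E and 305 and 314 at 30%E (-0.01 ± 0.12 (SE), adjusted p = 0.942), *fgf3* had 21.4 and 21.9 at 75%E and 44.1 and 40.2 at 30%E (-0.96 ± 0.12), and *fgf24* had 113 and 128 at 75%E and 49 and 44.8 at 30%E (1.36 ± 0.13). The feedback inhibitors *spry4* (1.91), *spry2* (0.75), *spred1* (2.39) and *dusp6* (0.73) were higher, with 1 other probe set of each of the last 3 not called, and *dusp4* (-1.1) and *dusp1* (-0.63) were lower. The receptors *fgfr2* (1.97), *fgfr3* (0.98) and *fgfr4* (0.76) were higher.

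Of 23 retinoic acid genes 13 (56.5%) were higher and 2 lower (median 0.45), against 28.1% and 31.3% over all genes. Beside *aldh1a2*, the binding protein *crabp2b* had 1731 and 2153 in 75%E embryos, against 236 and 252 in 30%E embryos (2.98 ± 0.14) and the receptor *raraa* had 201 and 222 in 75%E embryos, against 56.9 and 50.6 in 30%E embryos (1.98 ± 0.13). *cyp26a1*, which degrades retinoic acid, was bright already at 30%E and had 1686 and 1873 at 75%E and 1056 and 1165 at 30%E (0.68 ± 0.14). Hedgehog and Notch genes were higher in 20 of 35 cases (57.1%), 17 of them at least 2-fold, and lower in 4 (median 0.99). The receptor-side genes *gli2a* (3.31), *smo* (1.97) and *hhip* (2.05), the receptors *notch3* (2.37) and *notch1a* (1.18) and the feedback genes *nrarpb* (3.26) and *nrarpa* (1.89) were higher, and *sufu* (-1.87), *hey1* (-1.21) and *jag2b* (-0.87) were lower.

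The 2 main classical cadherins moved in opposite directions. *cdh2*, N-cadherin of the neural plate and mesoderm, had 1614 and 1637 in 75%E embryos, against 124 and 104 in 30%E embryos (3.84 ± 0.13 (SE), adjusted p = 2.92e-07), and *cdh1*, E-cadherin of the blastoderm, had 1346 and 1265 in 75%E embryos, against 2155 and 2086 in 30%E embryos (-0.7 ± 0.11 (SE), adjusted p = 6.91e-04). The groups were apart for both, as for 78.2% of all probe sets. Over the adhesion and matrix list 26 of 51 (51%) were higher and 8 lower (median 0.38), against 28.1% and 31.3% over all genes. *pcdh10b* and *pcdh19*, protocadherins, were at 3.85 and 3.23. *lamb1a*, a laminin chain of basement membranes, had 2269.5 and 2617 in 75%E embryos, against 293 and 267 in 30%E embryos (3.12 ± 0.12), and the fibronectins *fn1a* (1.87) and *fn1b* (1.56) were higher as well. Guidance molecules of boundary formation (*efnb2b* (3.44) and *epha4a* (2.39)) rose. Beside *cldnd*, *ctnna2* (-2.63), *tjp2b* (-2.53), *cldn7b* and *has2* (-1.24) (hyaluronan synthase) were lower.

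Genes of gastrulation movements were nearer to the background, with 17 of 48 (35.4%) higher and 13 (27.1%) lower (median 0.11). A chemokine and its receptors moved in opposite directions. *cxcl12b* had 422 and 438 in 75%E embryos, against 37.4 and 40.5 in 30%E embryos (3.47 ± 0.11), whereas the receptor *cxcr4a* of mesendoderm had 806 and 1089.9 in 75%E embryos, against 3559 and 3428 in 30%E embryos (-1.9 ± 0.16) and *cxcr4b*, the receptor of germ cells, had 216 and 310.0 in 75%E embryos, against 1064 and 988 in 30%E embryos (-1.99 ± 0.17). No sample crossed over to the other stage's range in any of them, which held for 78.2% of all probe sets. Of the planar polarity genes *prickle1a* (1.4) was higher. The GTPases *rhoaa* (1.96) and *rhoab* (1.44) were higher and *rac1a* (-0.9) lower, and *trpm7* was lower at -2.29.

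**Figure D5:**
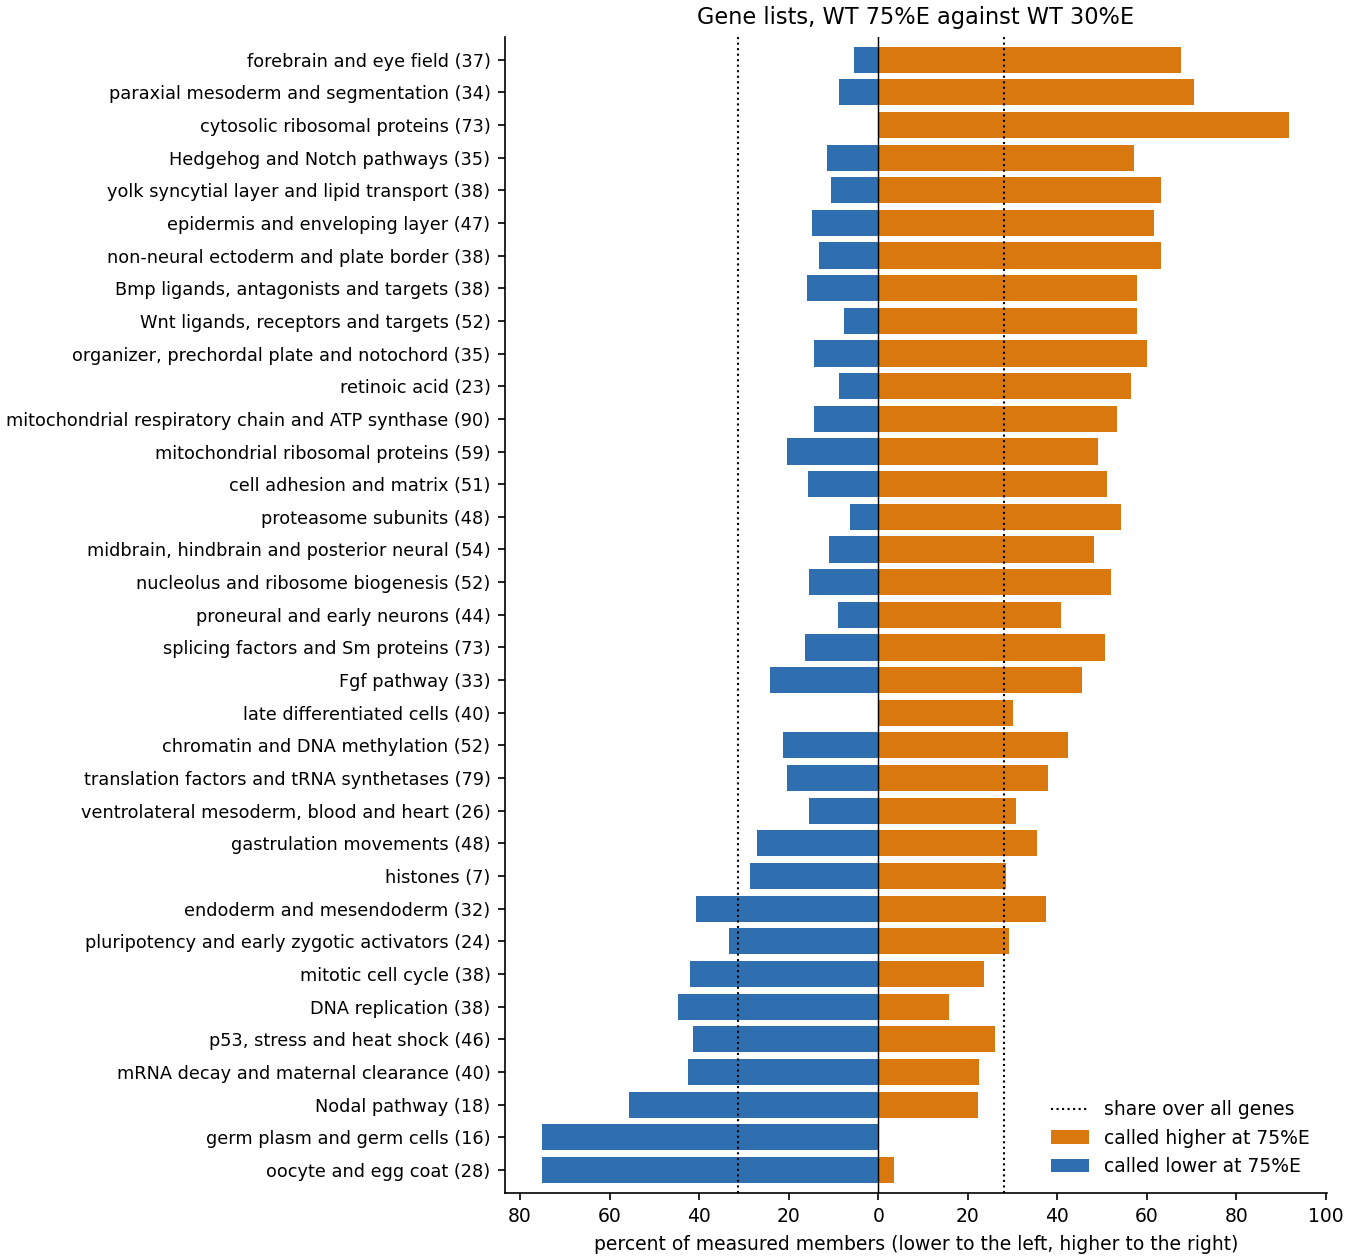
Percentage of measured members called higher (right, orange) and lower (left, blue) at 75%E against 30%E for each gene list, ordered by median log2 difference, with the number measured in parentheses. The dotted lines are the shares over all 8793 genes, 28.1% higher and 31.3% lower, and are not matched to the signal of a list. The lists were chosen with earlier results of these data known. Ribosomal protein genes reach 91.8% higher, and oocyte and germ plasm genes 75% lower.

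Cell cycle genes moved both ways. In the mitotic list 16 of 38 (42.1%) were lower and 9 (23.7%) higher (median -0.14), against 31.3% and 28.1% over all genes. The egg-type cyclin *ccna1* fell by 4.18, and its somatic counterpart *ccna2* had 2521 and 2739 in 75%E embryos, against 5901 and 6144 in 30%E embryos (-1.2 ± 0.11). *ccnb1* (-1.66), *ccnb2* (-2.02) and *ccne1* (-1.94) were lower. The survivin genes diverged: *birc5b* had 124 and 114 in 75%E embryos, against 542 and 572 in 30%E embryos (-2.23 ± 0.12) and *birc5a* had 1102 and 934 in 75%E embryos, against 655 and 472 in 30%E embryos (0.87 ± 0.17). *mybl2b*, a Myb factor of the G2 phase, had 1292 and 1471 in 75%E embryos, against 305 and 333 in 30%E embryos (2.11 ± 0.27), and *bub3* (1.67), *kif11* (1.49) and *cdk1* (1.12) were also over 2-fold higher. The kinases *plk1* (-0.03) and *aurka* (-0.2) were not called.

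The replication list had 17 of 38 (44.7%) lower, 12 of them at least 2-fold, and 6 (15.8%) higher (median -0.23). Over all genes 31.3% were lower, 16.9% at least 2-fold, and 28.1% higher. The decreases included genes of origin recognition and licensing. *orc2* had 53.9 and 83.3 in 75%E embryos, against 334 and 279 in 30%E embryos (-2.19 ± 0.20), and *orc1* (-1.44), *orc5* (-1.46), *orc6* (-1.49), *cdc6* (-1.44), *cdt1* (-1.4) and *gmnn* (-2.0) (Geminin, the inhibitor of Cdt1) were lower. *gins2*, a subunit of the helicase complex, had 29.2 and 60.9 in 75%E embryos, against 349 and 363 in 30%E embryos (-3.08 ± 0.28). The 2 genes for the helicase subunit Mcm6 moved in opposite directions. *mcm6l* had 281 and 413 in 75%E embryos, against 1138 and 1281 in 30%E embryos (-1.83 ± 0.18 (SE), adjusted p = 4.99e-05), and *mcm6* had 445 and 329.9 in 75%E embryos, against 157 and 116 in 30%E embryos (1.5 ± 0.20 (SE), adjusted p = 2.45e-04). *mcm3* (1.31) was higher, and *mcm2* (0.15), *mcm4* (-0.02) and *mcm5* (-0.19) were not called.

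Genes of mRNA turnover were also divided. Of 40 genes 17 (42.5%) were lower and 9 (22.5%) higher (median -0.28), against 31.3% and 28.1% over all genes. Beside *patl2*, *btg4* and *cpeb1b*, deadenylase subunits *cnot8* (-2.03) and *cnot3b* (-1.76) and the m6A reader *ythdf3* (-1.59) were lower, as was *dgcr8* of the microRNA processor at -1.87. *zfp36l1b*, a CCCH protein that directs AU-rich mRNAs to decay, had 257 and 249 in 75%E embryos, against 24.2 and 20.4 in 30%E embryos (3.51 ± 0.13), and *zfp36l1a* had 732 and 672 in 75%E embryos, against 240.4 and 255 in 30%E embryos (1.5 ± 0.12). Both were higher in each 75%E sample. *dcp2* (1.37), the decapping enzyme, and *edc3* (1.48) were higher, whereas the reader *ythdf2* (-0.03) was not called.

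Cytosolic ribosomal protein genes were nearly all higher, by small to moderate amounts, and nucleolar and proteasome genes were more often higher than lower. Of 73 genes of cytosolic ribosomal proteins 67 (91.8%) were higher, 37 at least 2-fold, and none was lower. The median was 1.01 against 0.04 over all genes, of which 28.1% were higher and 31.3% lower. *rpl5a* had 2434 and 2779.8 in 75%E embryos, against 779 and 673 in 30%E embryos (1.84 ± 0.13), and its duplicate *rpl5b* had 5006 and 5382 in 75%E embryos, against 4237 and 4054 in 30%E embryos and was not called (0.32 ± 0.12 (SE), adjusted p = 0.0521), although it was with all 12 arrays, without dim probe sets or with a variance trend (adjusted p = 0.0159, 0.044 and 0.00815). Probe sets of the 2 copies may share signal. The member *rpl12* (-0.04) was not called either. Nucleolar genes were higher in 27 of 52 cases (51.9%) and lower in 8, with *nop2* (2.13) and *gnl3* (1.85) leading. Proteasome subunits were higher in 26 of 48 (54.2%) and lower in 3, the largest being *psmb6* (2.2), and the decrease of *psme3*, a nuclear activator, reached -1.26.

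In the respiratory chain 48 of 90 genes (53.3%) were higher and 13 lower (median 0.41), from *cox8a* (1.98) and *cox7b* (1.95) to *ndufv1* (-1.73) and the assembly factor *uqcc3* (-2.33). Mitochondrial ribosomal proteins were higher in 29 of 59 (49.2%) and lower in 12, and splicing factors higher in 37 of 73 (50.7%) and lower in 12, with *hnrnpua* (2.5) the largest. Translation factors and tRNA synthetases stood nearer to the background of 28.1% higher and 31.3% lower, with 30 of 79 higher (38%) and 16 lower. *eif4ea*, a cap-binding protein, had 669.9 and 550.2 in 75%E embryos, against 107 and 89.7 in 30%E embryos (2.63 ± 0.15), and *eif4g3a*, a scaffold of the cap complex, had 90 and 78.5 in 75%E embryos, against 307 and 393 in 30%E embryos (-2.05 ± 0.16).

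Of 52 chromatin genes 22 (42.3%) were higher and 11 (21.2%) lower (median 0.18), against 28.1% and 31.3% over all genes. The de novo methyltransferase *dnmt3ba* (1.25) and the remodeler *hells* (1.1) were higher, while *uhrf1*, which targets maintenance methylation, was lower with 1829 and 1539.8 at 75%E and 2897 and 3024 at 30%E (-0.82 ± 0.12). Of the 7 histone genes 2 were higher and 2 lower. *h3f3d*, a replacement histone H3, had 1895 and 1568 at 75%E and 851 and 842 at 30%E, whereas *h1m* was lower at 75%E.

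The stress and p53 list had 19 of 46 (41.3%) lower, 11 at least 2-fold, and 12 (26.1%) higher (median -0.26). Over all genes 31.3% were lower, 16.9% at least 2-fold, and 28.1% higher, so that the share higher was near the background. Among the lower members, *hsp90b1* (Grp94, a chaperone of the endoplasmic reticulum) had 142 and 190.3 in 75%E embryos, against 778 and 833 in 30%E embryos (-2.29 ± 0.15), and *hspa5* (BiP) had 458 and 974 in 75%E embryos, against 2284 and 2791 in 30%E embryos (-1.92 ± 0.30). *prdx1*, a peroxiredoxin, had 219 and 238 in 75%E embryos, against 1233 and 1158 in 30%E embryos (-2.39 ± 0.12). The 75%E samples were below both 30%E samples for all 3, where 78.2% of all probe sets were separated by stage. The genes *sod1* (-1.57), *prdx2* (-1.45) and *gclm* (-1.6) were lower too. The caspases *casp8* (-1.66) and *casp9* (-1.38) were lower. On the other side *hspe1* (2.11), *sesn3* (2.0), *atf4a* (1.98) and *gadd45ga* (1.63) were higher, and *hspa8* (0.08) and *hspd1* (-0.14) were not called.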

How the data were processed

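Total RNA of whole WT embryos was hybridized to 1-colour Affymetrix arrays. The deposited intensity values are linear and come from the authors' use of RMA (version not given in the sources used here), a program that removes background, gives arrays the same distribution of probe values and combines the probes of each set. Differences are therefore relative, and the sources do not say which arrays were normalized jointly. The lower quartile of the deposited signals lay at 22.7 to 23.5 for 75%E and at 21.0 to 21.4 for 30%E, and the upper quartile at 277 to 283 for 75%E and 307 to 314 for 30%E. Arrays hold no read depth, and their number, 2 per stage, limits the precision.

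Log2 was taken of the deposited values. Of 15617 probe sets 115 controls were left out and 15502 tested. The platform annotation gave 1 gene symbol to 10795, several to 135 and none to 4572. The brightest probe set (mean log2 over the 6 WT arrays) stood for a gene. In R 4.3.3, limma 3.58.1 (lmFit, eBayes) fitted a mean per stage to the 6 WT arrays, with 3 residual and 5.29 prior degrees of freedom, and tests were two-sided with Benjamini-Hochberg adjustment. A simulation had 200 of the 15502 probe sets changed, with noise drawn from the spread of the fit. On these simulated data the fit called 72 of 100 probe sets changed by 1 in log2, 95 of 100 changed by 2 and 2 unchanged ones. Far more probe sets (53.7%) were called in the real data, so that these shares do not carry over to them. Tables were handled in Python 3.11.15 with pandas 2.3.3.

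The genes named are the 12 largest increases and decreases among called genes whose stages do not overlap, the 4 targeted B1 sox genes, up to 3 members of each of 35 lists in each direction and further members whose role is described. Clone-named genes were counted only. The members and lists were chosen with earlier results of these data known. Alternatives were median centring, quantile normalization applied again, leaving out probe sets whose mean signal lay in the lower 40%, a variance trend, fits to 4 or to all 12 arrays, a replicate block, stricter limits, the study's 2-fold rule, 1 probe set per gene and leaving out each array.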

Additional observations from a re-analysis of the deposited data

Results flagged for a closer look

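The control probe sets, which entered no comparison, carried a signal that differed between the stages. The bacterial transcripts added to the hybridization mix were brighter at 75%E than at 30%E. The values are geometric means over the probe sets of a control. For bioB (6 probe sets) the signal was 284 and 314 in the samples of 75%E, against 179 and 191 in those of 30%E, which is 1.61-fold. For bioC (4 probe sets) it was 602 and 662 at 75%E, against 401 and 417 at 30%E, 1.54-fold. For bioD (4 probe sets) it was 1734 and 1935 at 75%E, against 1332 and 1384 at 30%E, 1.35-fold. The brightest control, cre, was at 0.993-fold. In the TB samples bioB had 186 and 186 and cre 5047 and 5325, the cre signals lying under those of 30%E (6594 and 6850). What part these controls have in the small differences between the stages was not tested.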

How the results depend on the processing

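The counts of called probe sets, 4299 higher and 4021 lower, stayed within 1.5 times under every scaling, filter, fit and adjusted-p limit tried, with 3 exceptions that changed what was counted: 2526 higher with 1 probe set per gene (8793 tested), 1710 higher and 2111 lower with a change of at least 2-fold asked for, and 1723 higher and 2114 lower by the ratio of mean linear signals without a test. Leaving out 1 WT array at a time gave 3284 to 4345 higher and 3368 to 3920 lower. Without the second array of 30%E 6579 of the 8320 calls (79.1%) were made in the same direction, and 7621 (91.6%) after a second quantile normalization, where 1 turned its sign. The replicate numbers do not state a pairing, and the correlation of same-numbered samples' deviations was 0.104 between 75%E and 30%E, -0.041 between TB and 30%E and 0.105 between TB and 75%E. With the replicate number as a block, 4280 were higher and 4015 lower. With the block the call of *tbxta* was lost (adjusted p = 0.0646), and no other call named here changed.

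Of the 279 genes named and called, 7 lost the call under some of up to 13 other fits and none turned its sign: *tbxta*, *nanos3*, *ndr2*, *rx3*, *skia*, *vent* and *emx3*, which have their values above. Named genes with a dim probe set were absent from the fit that left such probe sets out, and were not tested there. *tbxta* was also lost with 4 arrays and after a second quantile normalization (0.0733 and 0.0503). Leaving out either TB array gave the same result as the fit to 4 arrays, so that these are not separate checks among the 13. Of the 41 named and not called, *ddx4*, *lft1*, *rpl5b* and *zp3b* were called under at least 1 alternative. Of 980 counts of list members 39 moved by over 1.5 times. Without the first 30%E sample the members lower were 4 of the Fgf list, 3 of the Bmp list, 2 of the ectoderm list and 1 of the proneural list. Without the second 30%E sample they were 4 of the Fgf list, 7 of the chromatin list, 5 of the nucleolar list and none of the forebrain list, and 2 of the Nodal list were higher. Without the first 75%E sample 3 of the Bmp and 3 of the ectoderm list were lower, and without the second 5 of the Fgf list. With dim probe sets left out 8 of the retinoic acid list were higher and 2 of the hindbrain list lower. List medians turned their sign in 8 of 490 cases, all in the pluripotency, endoderm and histone lists, where the endoderm median was -0.22 without dim probe sets. The causes were not tested.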

Other observations

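Many zebrafish genes are present in duplicate copies, which carry the same symbol with a final a or b. Of 664 such pairs of symbols measured, chosen after the values had been seen, 158 (23.8%) were called in the same direction in both copies, 88 of them higher at 75%E and 70 lower. In 82 pairs (12.3%) one copy was higher and the other lower. The shares over single genes, 28.1% higher and 31.3% lower, are no background for pairs. Pairs of unrelated genes were not compared, so that whether copies move together more than other genes cannot be read from these counts. Not every such pair of symbols stands for a duplication. In only 15 of the 664 pairs (2.26%) both opposite changes reached 2-fold, and the examples were taken from these. *arl6ip5a*, a membrane protein of the endoplasmic reticulum, had 1170.0 and 992 in 75%E embryos, against 254 and 172 in 30%E embryos (2.37 ± 0.19), and *arl6ip5b* had 16.4 and 22 in 75%E embryos, against 226 and 220.2 in 30%E embryos (-3.56 ± 0.15). The copies of a sodium pump subunit, *atp1b3a* and *atp1b3b*, were at 2.92 and -2.78. Those of glutamine synthetase, *glula* and *glulb*, were at 3.9 and -1.17. *prkacba* and *prkacbb*, catalytic subunits of protein kinase A, were at 3.45 and -1.88, and the Myc-type genes *mycla* and *myclb* at -1.59 and 2.55. In these pairs, as for *mcm6* and *mcm6l* or *birc5a* and *birc5b*, one copy was higher and the other lower at 75%E. Whether the probes of 2 copies share signal was not tested.

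In probe sets lower at 75%E the 2 samples of either stage differed mostly in one direction. In those higher at 75%E this held for the 30%E samples only. Of the 2111 probe sets at least 2-fold lower at 75%E, 1476 (69.9%) had the higher signal in the second 75%E sample, with a median log2 difference of 0.15 between the samples of that stage, and 1406 (66.6%) had the higher signal in the second 30%E sample (0.08). Of the 1710 at least 2-fold higher, 839 (49.1%) were higher in the second 75%E sample, and 575 (33.6%) in the second 30%E sample. Over all probe sets these shares were 48.5% at 75%E and 48.9% at 30%E. Lower genes with more signal in the second 75%E sample were *ccna1*, *nanog* (321 and 682 at 75%E) and *map1lc3c*, among others.

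Of 1539 genes with more than 1 probe set, all were called the same way in 610, some were called and none opposite in 479, none was called in 412, and 38 had probe sets called in opposite directions. Among the genes given above, *apoba*, *hoxb8a*, *lhx1a*, *nrarpb* and *tfap2c* each had a further probe set that was not called.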
